A study of Homo sapiens with 6 samples.

Results

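ATF4, its bZIP partners and a set of stress effector genes under their control are described here in NCI-H1299, an established human cell line labelled as lung adenocarcinoma. The set holds 10 genes, ATF4, DDIT3 (which encodes CHOP), ATF5, CEBPB, TRIB3, CHAC1, SESN2, DDIT4, ASNS and PPP1R15A, of 28495 genes in the deposited table. All 10 were found by Ensembl identifier, and 9 of them passed the filter of a mean of at least 0.5 FPKM, that is fragments per kilobase of gene and per 1e6 fragments. They were chosen on earlier results of the same comparison, so their differences between the groups are given as a description, with no p-value. The groups were cells silenced for complement factor B (sh-CFB, 3 libraries) and control cells of the same line (sh-NC, 3 libraries). The titles name hairpins while the column names are of the kind used for siRNA, so the form of the reagent is not settled, and no clone, promoter or time after silencing is given. The study asked what the loss of CFB does to the transcripts of these cells.

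ATF4 is the transcription factor of the integrated stress response. Kinases that sense amino acid shortage, misfolded protein in the endoplasmic reticulum, viral RNA or lack of haem phosphorylate the translation factor eIF2, which slows translation in general while the ATF4 mRNA, through its upstream reading frames, is translated more. ATF4 then pairs with C/EBP family proteins on composite elements and induces genes of amino acid supply, redox balance, mTORC1 restraint, cell death and feedback. ATF4 activity is therefore set largely at translation, and its mRNA level does not measure its protein.

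Recovered depth ranged from 26.2 to 38.3 M reads (M, 1e6) in sh-CFB libraries and from 32.9 to 39.9 M reads in sh-NC libraries. CFB, the silenced gene, was near 0 in both groups, with 0, 0 and 2 reads in sh-CFB, against 1, 6 and 5 reads in sh-NC. Its mRNA was at most 0.0321 FPKM in the control cells, so its silencing could not be checked. The libraries differed along an axis that followed GC content. Across genes, which are not independent replicates, the Spearman correlation of a library's deviation with GC was 0.595, -0.0967 and -0.156 for sh-CFB replicates 1, 2 and 3, against -0.555, -0.248 and 0.234 for sh-NC replicates 1, 2 and 3. Log2 changes after a correction for GC and length are therefore given beside those on the deposited scale. Of the 6 epithelial markers KRT7, KRT8, KRT18, KRT19, EPCAM and CDH1, 3 passed the filter. The keratins KRT8 and KRT18 were high, while EPCAM and CDH1 were at or below 0.125 FPKM. The 5 lung lineage markers NKX2-1, NAPSA, SFTPA1, SFTPB and SFTPC summed to at most 0.371 FPKM in sh-CFB and 0.679 FPKM in sh-NC. Immune, fibroblast and endothelial markers each summed to under 1 FPKM in every library. Whether the replicates were separate cultures is not stated in any label, and p-values then reflect the spread of these 6 libraries alone, which may be technical.

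TRIB3, CHAC1, SESN2, CEBPB, DDIT3, DDIT4 and ATF5 were lower in each sh-CFB library than in any sh-NC library. Such a separation was found in 23.6% of all tested genes. The values of ATF4 mRNA overlapped between the groups. TRIB3, CHAC1, SESN2 and CEBPB were also among the genes that limma called lower across the whole table (adjusted p under 0.05), which were 5.71% of all tested genes. For genes chosen on this comparison, called, fell and passed are used as labels from that fit and are no independent test. No gene of the set was called higher, and PPP1R15A, the feedback phosphatase subunit, had its 3 sh-CFB values above its 3 sh-NC values. That separation was found in 10.04% of all tested genes. In bulk RNA, fewer cells that express a gene and less RNA per cell cannot be told apart.

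**Figure D1:**
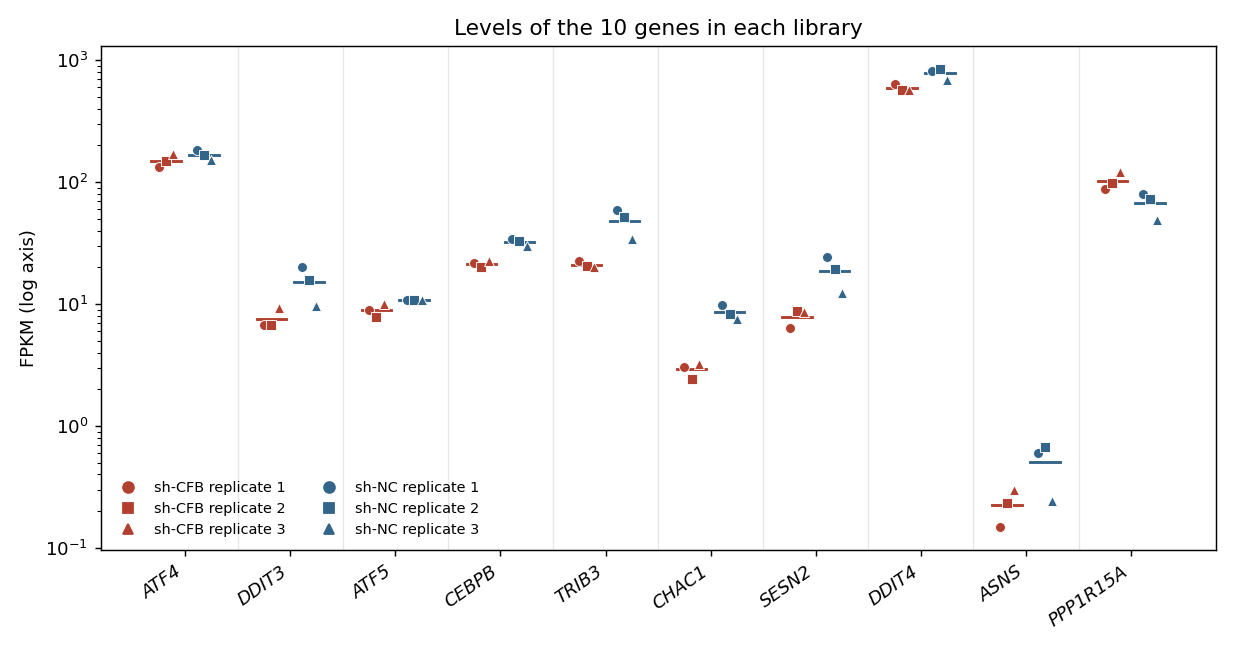
FPKM of the 10 genes in each library on a log axis, with sh-CFB (red) left of sh-NC (blue), marker shape for the replicate number and a bar at the group mean. The groups overlap in ATF4 and ASNS and in no other gene of the set, and sh-NC replicate 3 is the lowest sh-NC library for all 10 genes.

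ATF4 (ENSG00000128272, GRCh38 chromosome 22, 39519695 to 39522685, plus strand) had 132, 148 and 169 FPKM in sh-CFB replicates 1, 2 and 3, against 181, 167 and 153 FPKM in sh-NC replicates 1, 2 and 3. The groups overlapped, and sh-CFB replicate 3 lay above 2 of the 3 sh-NC libraries. The means were 149.5 ± 18.4 FPKM in sh-CFB and 167 ± 14.4 FPKM in sh-NC (SD, n = 3 each). The log2 change was -0.16 (SE 0.12) and did not pass the test, and it was -0.11 after the GC correction and 0.042 with median-of-ratios factors, so no direction is given. It was the second most abundant of the 10 mRNAs, at the 99.0th percentile of all listed genes. In the GENCODE 29 annotation, the transcript used for ATF4 has a 5' leader of 882 bases with 7 upstream ATGs, of which 5 open frames that close before the coding start and 2 open frames that run over it. Of 18718 genes, 6.69% had at least as many, and the median was 1 upstream ATG in a leader of 190.5 bases. Over the 3 annotated ATF4 transcripts the leader ran from 280 to 882 bases and the count from 3 to 7. In each, 1 or 2 of the frames overlapped the start. The transcript used has the longest of these leaders, and 22.7% of genes had at least 3 upstream ATGs. Within the set, the transcript used for TRIB3 had 3 upstream ATGs, ATF5, DDIT3, ASNS and PPP1R15A had 2, SESN2 had 1, and CHAC1, DDIT4 and CEBPB had 0. These counts depend on the transcript: over all annotated ones they ran from 0 to 4 in CHAC1, whose leader had 20 bases in the transcript used and up to 622 in others, from 2 to 6 in ATF5, from 2 to 5 in DDIT3, from 0 to 3 in ASNS and from 2 to 3 in TRIB3.

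DDIT3 (ENSG00000175197, chromosome 12, 57516588 to 57521737, minus strand) encodes CHOP, the bZIP factor that carries a lasting stress response toward cell death. It had 6.68, 6.74 and 9.22 FPKM in sh-CFB replicates 1, 2 and 3, against 19.98, 15.7 and 9.57 FPKM in sh-NC replicates 1, 2 and 3. Each sh-CFB library was below each sh-NC library, but sh-CFB replicate 3 and sh-NC replicate 3 lay close together, at 463 and 412 reads in libraries of unequal depth. The log2 change of -0.91 (SE 0.26) did not pass, and it was -0.72 after the GC correction. It passed in 1 of 15 alternative settings without a replicate block, at -1.19 without sh-NC replicate 3, and was -0.68 without sh-NC replicate 1 and -0.61 without both replicate 1 libraries. DDIT3 shares 27.2% of its exon bases with MARS1, the cytosolic methionyl-tRNA synthetase, on the opposite strand. MARS1 had 14.9, 15.6 and 17.3 FPKM in sh-CFB, against 47.5, 42.6 and 33.9 FPKM in sh-NC. The strand setting of the counting is not given in the sources used here, so reads of the shared stretch cannot be told apart and the part of MARS1 in the DDIT3 values was not tested.

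CEBPB (ENSG00000172216, chromosome 20, 50190734 to 50192689, plus strand) encodes C/EBP beta, a dimer partner of ATF4. It had 21.8, 19.9 and 22.4 FPKM in sh-CFB replicates 1, 2 and 3, against 34.1, 32.9 and 29.7 FPKM in sh-NC replicates 1, 2 and 3. The groups stood well apart, and the spread within each was small beside the distance between them. CEBPB fell by a log2 change of -0.58 (SE 0.10), and by -0.78 after the GC correction. The call was lost without sh-CFB replicate 2 (-0.53), without sh-NC replicate 1 (-0.54) and without sh-NC replicate 2 (-0.56). ATF5 (ENSG00000169136, chromosome 19, 49928702 to 49933935, plus strand), a bZIP factor of the same stress branch whose mRNA also carries upstream reading frames, had 8.85, 7.84 and 10.1 FPKM in sh-CFB, against 10.8, 10.8 and 10.7 FPKM in sh-NC. The sh-NC libraries were nearly equal and the 3 sh-CFB libraries lay under them. The log2 change of -0.27 (SE 0.12) did not pass, and it was -0.31 after the GC correction. ATF5 shares 21.2% of its exon bases with NUP62 on the opposite strand, which had 7.85, 8.67 and 10.7 FPKM in sh-CFB, against 11.9, 11.9 and 13.3 FPKM in sh-NC.

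TRIB3 (ENSG00000101255, chromosome 20, 362835 to 397559, plus strand) encodes a pseudokinase that is induced by ATF4 and CHOP and in turn restrains them. It had 22.5, 20.3 and 20.1 FPKM in sh-CFB replicates 1, 2 and 3, against 58.4, 51.9 and 34.1 FPKM in sh-NC replicates 1, 2 and 3. The sh-CFB libraries were tightly grouped and the sh-NC libraries spread widely, with replicate 3 nearest to sh-CFB. The means were 20.9 ± 1.31 FPKM in sh-CFB and 48.1 ± 12.5 FPKM in sh-NC (SD, n = 3 each), so sh-CFB stood at 43.5% of sh-NC. TRIB3 fell by a log2 change of -1.15 (SE 0.19), and by -1.20 after the GC correction. Its call was lost without sh-CFB replicate 2 (-1.13), without sh-CFB replicate 3 (-1.12) and without sh-NC replicate 2 (-1.08).

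CHAC1 (ENSG00000128965, chromosome 15, 40952962 to 40956519, plus strand) encodes an enzyme that breaks down glutathione and is a classic target of ATF4. It had 3.05, 2.44 and 3.25 FPKM in sh-CFB replicates 1, 2 and 3, against 9.81, 8.23 and 7.55 FPKM in sh-NC replicates 1, 2 and 3. These values rest on 164, 167 and 256 reads in sh-CFB, against 794, 676 and 510 reads in sh-NC. The lowest sh-NC library held more than any sh-CFB library by a wide margin. The means were 2.91 ± 0.422 FPKM in sh-CFB and 8.53 ± 1.16 FPKM in sh-NC (SD, n = 3 each), so sh-CFB stood at 34.1% of sh-NC. CHAC1 fell by a log2 change of -1.40 (SE 0.16), the largest of the 9 tested genes on this scale, and by -1.54 after the GC correction. It kept its call in 14 of 15 alternative settings without a replicate block and lost it without sh-NC replicate 2 (-1.42). With a replicate block CHAC1 was not called, with or without the GC correction.

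The CHAC1 promoter is shown because it is one of 2 in the set that hold the letters searched for the composite element of ATF4 and C/EBP proteins. The letters were TGATGNAA, on both strands, in the 300 bases from 250 before to 50 after each RefSeq transcription start (RefSeq, GRCh38.p14). The second is the promoter of ASNS, and PPP1R15A is shown beside them as the gene that stood on the other side of the comparison. Capitals mark a match. CHAC1 is chr15:40953221-40953520 on the plus strand, ASNS is chr7:97872359-97872658 on the minus strand and PPP1R15A is chr19:48872171-48872470 on the plus strand.
CHAC1: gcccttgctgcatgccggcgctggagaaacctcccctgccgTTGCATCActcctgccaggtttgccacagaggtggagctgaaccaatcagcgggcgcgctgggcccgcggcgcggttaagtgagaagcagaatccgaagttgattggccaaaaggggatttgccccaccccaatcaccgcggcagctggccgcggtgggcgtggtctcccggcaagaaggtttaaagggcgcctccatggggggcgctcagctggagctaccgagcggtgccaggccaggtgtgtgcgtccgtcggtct
ASNS: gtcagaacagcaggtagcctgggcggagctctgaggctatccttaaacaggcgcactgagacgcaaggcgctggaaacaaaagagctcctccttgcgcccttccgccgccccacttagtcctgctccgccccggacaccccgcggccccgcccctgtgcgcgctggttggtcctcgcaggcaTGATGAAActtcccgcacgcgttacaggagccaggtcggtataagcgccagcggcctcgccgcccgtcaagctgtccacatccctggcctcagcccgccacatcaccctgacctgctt
PPP1R15A: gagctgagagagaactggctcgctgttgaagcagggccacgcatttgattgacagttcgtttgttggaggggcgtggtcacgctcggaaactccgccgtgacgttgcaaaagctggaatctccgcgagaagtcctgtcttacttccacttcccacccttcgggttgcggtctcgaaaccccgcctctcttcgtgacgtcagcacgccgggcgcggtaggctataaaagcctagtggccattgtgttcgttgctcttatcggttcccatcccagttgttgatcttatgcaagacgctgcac
The CHAC1 match reads TTGCATCA, the reverse complement of the searched letters, with its first base at -209 from the start. The ASNS match reads TGATGAAA in the forward direction at -68. Matches were present in 2 of the 10 genes, and in 4.46% of the 27305 genes with a window. The exact letters TGATGCAA were present in CHAC1 of the set and in 1.08% of genes. TRIB3, SESN2 and CEBPB, which also fell, have no match in these windows, which says only that those letters are not there.

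SESN2 (ENSG00000130766, chromosome 1, 28259527 to 28282491, plus strand) encodes a leucine sensor that holds mTORC1 in check. It had 6.31, 8.76 and 8.52 FPKM in sh-CFB replicates 1, 2 and 3, against 24.1, 19.5 and 12.3 FPKM in sh-NC replicates 1, 2 and 3. The groups did not overlap, and sh-NC replicate 3 was the sh-NC library nearest to the sh-CFB libraries. SESN2 fell by a log2 change of -1.16 (SE 0.24), and by -1.17 after the GC correction. It was the least stable of the called genes, since its call was lost without any 1 of sh-CFB replicates 1, 2 and 3 (-1.01, -1.24 and -1.22) or of sh-NC replicates 1 and 2 (-0.95 and -1.10), and was kept without sh-NC replicate 3 (-1.42). The call of SESN2 was also lost without both replicate 1 libraries (-0.81), which lie at the ends of the GC axis, and with voom on recovered reads (-1.20).

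DDIT4 (ENSG00000168209, chromosome 10, 72273920 to 72276036, plus strand) encodes REDD1, which restrains mTORC1 through the TSC complex and also answers to hypoxia and glucocorticoids. It was the most abundant mRNA of the set and sat at the 99.8th percentile of listed genes. It had 640.2, 570.3 and 573 FPKM in sh-CFB replicates 1, 2 and 3, against 810.1, 846 and 681 FPKM in sh-NC replicates 1, 2 and 3. The groups did not overlap, and the lowest sh-NC library was again replicate 3. The log2 change of -0.39 (SE 0.12) did not pass the test, and it was -0.40 after the GC correction. An antisense transcript, DDIT4-AS1, covers 41.2% of its exon bases on the opposite strand and was not analysed here.

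ASNS (ENSG00000070669, chromosome 7, 97852118 to 97872542, minus strand) encodes asparagine synthetase, the textbook readout of amino acid shortage. It was under the filter and was not tested. It had 19, 38 and 56 reads in sh-CFB replicates 1, 2 and 3, against 116, 132 and 39 reads in sh-NC replicates 1, 2 and 3. In FPKM these were 0.148, 0.232 and 0.298 in sh-CFB, against 0.601, 0.673 and 0.242 in sh-NC. The groups overlapped, with sh-NC replicate 3 among the sh-CFB libraries, and reads cover counting error only. In GENCODE 29 another locus, ENSG00000284707, shares 44.6% of the exon bases of ASNS on the same strand, and it held 5, 1 and 11 reads in sh-CFB, against 17, 4 and 2 reads in sh-NC. How the authors treated reads that fall in both loci is not given in the sources used here, so the level of ASNS is uncertain.

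PPP1R15A (ENSG00000087074, chromosome 19, 48872392 to 48876057, plus strand) encodes GADD34, which brings protein phosphatase 1 to eIF2 and ends the response. It had 87.8, 97.5 and 121 FPKM in sh-CFB replicates 1, 2 and 3, against 79.9, 73.2 and 49.0 FPKM in sh-NC replicates 1, 2 and 3. All 3 sh-CFB libraries were above all 3 sh-NC libraries, and the replicate 1 libraries of the groups lay closest to each other. The means were 102 ± 17.2 FPKM in sh-CFB and 67.4 ± 16.2 FPKM in sh-NC (SD, n = 3 each). The log2 change of 0.61 (SE 0.20) did not pass, and it was 0.61 after the GC correction. Without both replicate 1 libraries, which lie at the ends of the GC axis, it was 0.85 and passed, and without sh-NC replicate 3 alone it was 0.40 and did not pass.

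Of the 9 tested genes, 4 were called lower and 0 higher on the deposited scale, beside 5.71% of all 12466 tested genes called lower and 1.74% called higher. After the GC correction the same 4 were called lower and 0 higher, beside 5.98% lower and 4.57% higher of all genes. With median-of-ratios factors CHAC1 was called lower (-1.22), TRIB3 (-0.94), SESN2 (-0.96) and CEBPB (-0.38) lost their calls and 0 genes were called higher, beside 1.12% lower and 0.563% higher of all 12424 genes in that fit. Groups did not overlap in 7 genes with sh-CFB lower and in 1 with sh-CFB higher, beside 23.6% and 10.04% of all tested genes. As the set was chosen from this comparison, nothing is read from these shares. With 1 library left out, 0 of the 9 were called lower without sh-NC replicate 2, 1 without sh-CFB replicate 2, 2 without sh-CFB replicate 3 or sh-NC replicate 1, 3 without sh-CFB replicate 1 and 5 without sh-NC replicate 3. All 9 kept the sign of their change in each of these fits. The median log2 change over the 9 genes was -0.58, beside -0.15 over all tested genes, and it was -0.72 beside 0.01 after the GC correction. Median-of-ratios factors moved the median of all genes to about 0.02 and that of the set to -0.38. The difference between the set and all genes was -0.43 on the deposited scale, -0.73 after the GC correction and -0.40 with median-of-ratios factors. These differences describe a set chosen from this comparison, and nothing is read from them.

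**Figure D2:**
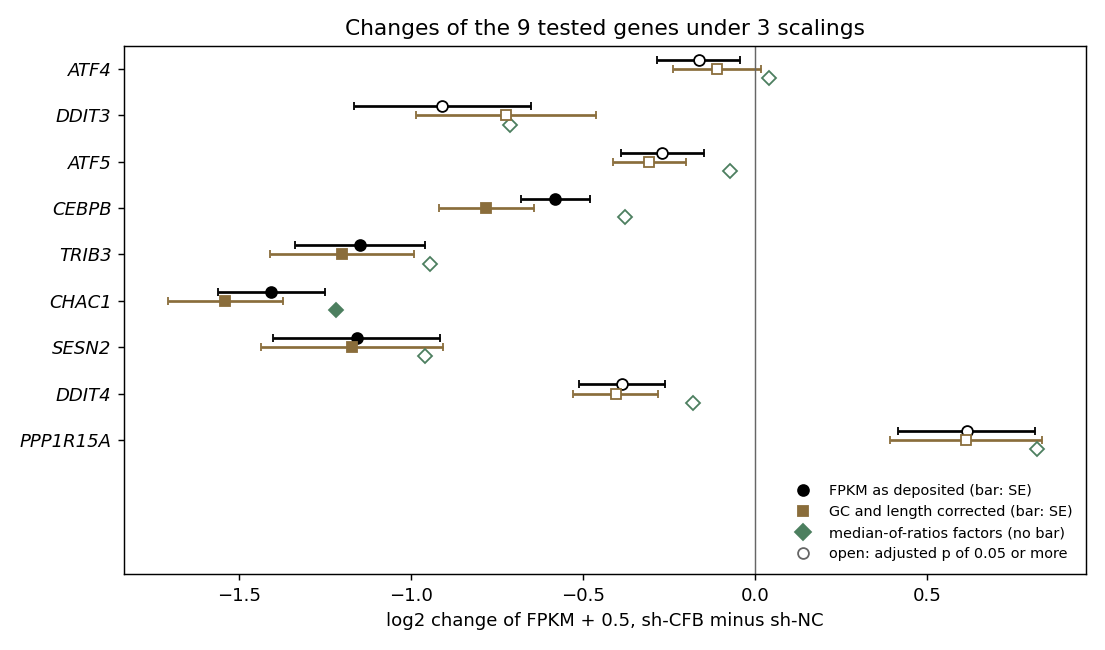
Log2 change (sh-CFB minus sh-NC) of the 9 tested genes on the deposited FPKM scale (circles), after correction for GC and length (squares) and with median-of-ratios factors (diamonds). Bars are SE and filled symbols have an adjusted p under 0.05. ATF4 lies between -0.16 and 0.042, CHAC1 between -1.54 and -1.22 with all symbols filled, and PPP1R15A is the only gene with all values above 0.

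Levels per length ordered the set alike in most of its range. Within every library DDIT4, ATF4 and PPP1R15A were the highest, and CHAC1 and ASNS the lowest. Ranges over the sh-CFB libraries overlapped for CEBPB (19.9 to 22.4 FPKM) and TRIB3 (20.1 to 22.5 FPKM). They also overlapped for ATF5 (7.84 to 10.1 FPKM), SESN2 (6.31 to 8.76 FPKM) and DDIT3 (6.68 to 9.22 FPKM), with ATF5 above DDIT3 in each sh-CFB library. In sh-NC, the range of TRIB3 (34.1 to 58.4 FPKM) stood just over that of CEBPB (29.7 to 34.1 FPKM) and overlapped that of PPP1R15A (49.0 to 79.9 FPKM). SESN2 (12.3 to 24.1 FPKM) and DDIT3 (9.57 to 19.98 FPKM) overlapped in range, with SESN2 above DDIT3 in each sh-NC library. DDIT3 also overlapped ATF5 (10.7 to 10.8 FPKM) and CHAC1 (7.55 to 9.81 FPKM).

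The libraries of each group were not alike for these genes. Within sh-NC, replicate 3 held the lowest value in 10 of 10 genes, a pattern found in 54.3% of all tested genes. In 8 of the 10 the sh-NC values were highest in replicate 1 and lowest in replicate 3, beside 45.7% of all tested genes. Replicate 1 of sh-NC was the highest of all 6 libraries in 7 of the 10 genes, beside 45.3%. PPP1R15A was lowest in sh-NC replicate 3 as well, although it lay on the other side of the comparison. The part of the GC axis in this order was not tested. The set was chosen on this comparison, and in 7 of the 10 genes every sh-NC value lay above every sh-CFB value. For those genes the highest library had to lie in sh-NC, so nothing is read from these counts.

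Each gene was also set against ATF4 mRNA in the same library. A ratio of FPKM takes out any factor that scales a whole library. The log2 differences below include the added 0.5 FPKM, so for low genes they take it out only in part and are smaller. CHAC1 stood at 2.31, 1.65 and 1.93% of the ATF4 FPKM in sh-CFB replicates 1, 2 and 3, against 5.42, 4.92 and 4.95% in sh-NC replicates 1, 2 and 3. TRIB3 stood at 17.0, 13.7 and 11.9% in sh-CFB, against 32.2, 31.0 and 22.4% in sh-NC. PPP1R15A stood at 66.6, 65.9 and 71.8% in sh-CFB, against 44.1, 43.7 and 32.2% in sh-NC. The groups did not overlap for any of these ratios, and the PPP1R15A ratio was nearly the same in the 3 sh-CFB libraries. On the log2 scale the difference between the groups was -1.24 for CHAC1, -0.99 for SESN2, -0.98 for TRIB3, -0.75 for DDIT3 and -0.42 for CEBPB, all with no overlap. It was -0.22 for DDIT4, -0.28 for ASNS and -0.11 for ATF5, all with overlap, and 0.78 for PPP1R15A. The ASNS value is held down by the added 0.5. In FPKM alone ASNS stood at 0.112, 0.157 and 0.1765% of ATF4 in sh-CFB, against 0.331, 0.402 and 0.1585% in sh-NC. The median over the 8 tested genes other than ATF4 was -3.20, -3.43 and -3.52 in sh-CFB, against -2.64, -2.70 and -2.96 in sh-NC. These medians did not overlap, and their group means differed by -0.62. With 1 library left out the difference ran from -0.71 to -0.55. The set was chosen on this comparison, so these ratios and their separation are a description only. The share of all genes whose ratio to ATF4 separates the groups was not computed. On FPKM itself the groups did not overlap in 23.6% of all tested genes with sh-CFB lower and in 10.04% with sh-CFB higher.

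**Figure D3:**
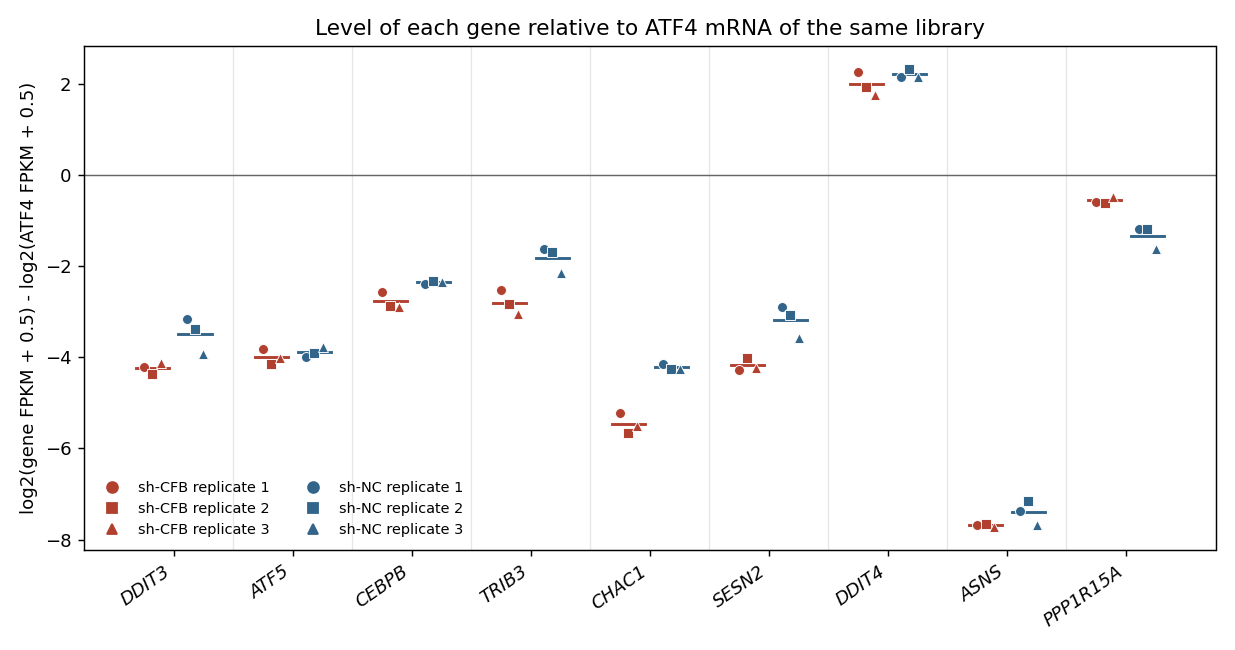
Log2 level of 9 genes minus that of ATF4 in the same library, with sh-CFB (red) left of sh-NC (blue), marker shape for the replicate number and a bar at the group mean. DDIT3, CEBPB, TRIB3, CHAC1 and SESN2 lie farther below ATF4 in sh-CFB than in sh-NC, PPP1R15A lies closer to it, and ATF5, DDIT4 and ASNS overlap.

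Genes around the set were taken from 6 lists, of which 114 genes were tested, and 10 of these were called lower and 6 higher. Of all 12466 tested genes, 5.71% were called lower and 1.74% higher, and 5.98% and 4.57% after the GC correction. The counts of each list below stand beside these shares, and nothing is read from them. Genes named below for a call gained after the GC correction were chosen after their values were seen. Among 26 tested further targets of ATF4 and CHOP, 5 were lower and 1 was higher. HERPUD1, a protein of endoplasmic reticulum associated degradation, had 19.7, 17.6 and 17.7 FPKM in sh-CFB, against 47.8, 44.8 and 32.1 FPKM in sh-NC, and fell by a log2 change of -1.14 (limma adjusted p = 0.0122), or -0.85 after the GC correction. JDP2, a bZIP repressor, averaged 0.801 ± 0.152 FPKM in sh-CFB and 2.34 ± 0.514 FPKM in sh-NC (SD, n = 3 each) and fell by -1.12 (limma adjusted p = 0.0193), or -0.89 after the GC correction. BBC3, which encodes the cell death protein PUMA, averaged 11.8 ± 1.71 FPKM in sh-CFB and 7.82 ± 0.545 FPKM in sh-NC and rose by 0.56 (limma adjusted p = 0.0456), a call that was lost after the GC correction (0.39). After that correction 5 were lower and 1 was higher, with PCK2 (-0.58) gaining a lower call, MAP1LC3B (-0.54) losing one and KLHL24 (0.56) gaining a higher one. The median of this list was -0.45, beside -0.15 over all genes, and it was -0.25 after the GC correction, beside 0.01. None of the lists is independent of earlier results of these data.

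On the input side, 2 of 16 tested eIF2 kinases, eIF2 subunits, eIF2B subunits and their regulators were lower and 0 were higher. These stand beside 5.71% and 1.74% of all tested genes. The list median was -0.37. After the GC correction 4 of the 16 were lower and 1 was higher, beside 5.98% and 4.57%, and the median was -0.083. The called genes were EIF2B3 and EIF2B1, subunits of the exchange factor that phosphorylated eIF2 blocks. EIF2B3 had 3.34, 3.95 and 3.75 FPKM in sh-CFB, against 6.18, 6.25 and 6.74 FPKM in sh-NC (log2 change -0.72, limma adjusted p = 0.0194). EIF2B1 had 3.75, 4.49 and 4.61 FPKM in sh-CFB, against 7.86, 6.91 and 7.22 FPKM in sh-NC (log2 change -0.71, limma adjusted p = 0.0220). Both were called after the GC correction too, at -0.43 and -0.42, values that are smaller by over 1.5 times. EIF2S1 (-0.43) and GCN1 (-0.41) gained a lower call in that fit, and DELE1 (0.45) a higher one. On the output side, 2 of 26 genes of mTORC1 and its amino acid sensors were lower, beside 5.71% of all tested genes. One was RRAGA, a Rag GTPase (-0.87, limma adjusted p = 0.0137, and -0.72 after the GC correction). The other was RHEB, the GTPase that activates mTORC1 (-0.39, limma adjusted p = 0.0482), which was -0.09 and not called after the GC correction. MTOR, the kinase itself, was not called on the deposited scale (-0.93) and was called lower after the GC correction (-0.71, limma adjusted p = 0.0331), so the count remained 2. The median of that list was -0.11, and -0.033 after the GC correction.

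Among 7 tested paralogs of the set, 0 were lower and 1 was higher, CEBPD, a C/EBP family factor (0.63, limma adjusted p = 0.0416), whose call was lost after the GC correction (0.37). In the corrected fit 1 paralog was lower and 0 were higher, the lower one being CHAC2, which degrades glutathione like CHAC1 (-0.63 on the deposited scale, -0.54 with limma adjusted p = 0.0175 after correction). Among 38 other bZIP factors, 2 were lower and 4 were higher, beside 5.71% and 1.74% of all tested genes. The lower ones were JDP2 and XBP1, a factor of the unfolded protein response (-0.55, limma adjusted p = 0.0341, and -0.33 with no call after the GC correction). The higher ones included FOS, an AP-1 subunit (1.77, limma adjusted p = 0.0160), and DBP, an output factor of the circadian clock (1.12, limma adjusted p = 0.0130). After the GC correction these were 1.97 and 1.15, and 1 bZIP factor was lower and 4 were higher. FOS had 10.2, 13.5 and 25.3 FPKM in sh-CFB, against 4.06, 3.93 and 4.33 FPKM in sh-NC. Of 9 tested glutathione genes, 0 were lower and 1 was higher, GGT7, a member of the gamma-glutamyltransferase family (0.62, limma adjusted p = 0.0237, and 0.55 after the GC correction), and the corrected fit also called CHAC2 of this list lower. The list medians were -0.03 for paralogs, -0.04 for other bZIP factors and -0.33 for glutathione genes, and 0.18, 0.036 and -0.079 after the GC correction. Of these 114 genes, limma called 0 either way without sh-CFB replicate 2 and 0 without sh-NC replicate 2, where 35 and 29 had an unadjusted p under 0.05. It called 2 lower and 3 higher both without sh-CFB replicate 3 and without sh-NC replicate 1, and 7 lower and 3 higher without sh-CFB replicate 1. Of the 12 genes named from the lists, JDP2, FOS and DBP kept their calls with median-of-ratios factors.

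**Figure D4:**
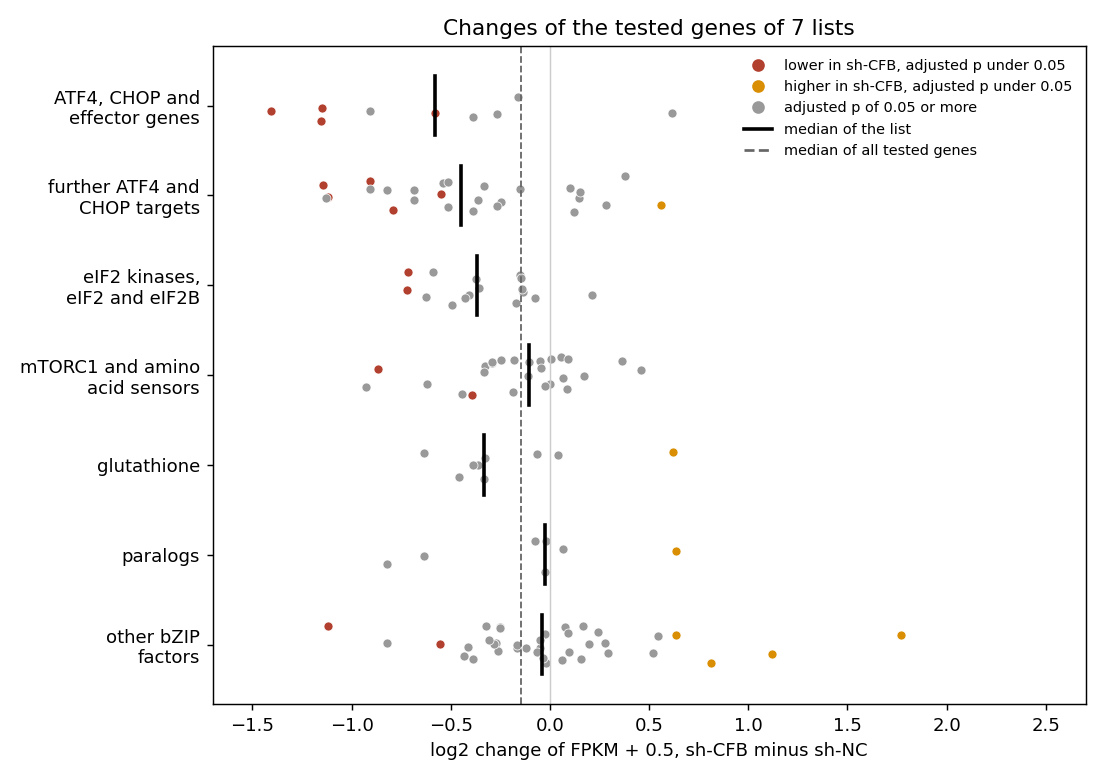
Log2 change (sh-CFB minus sh-NC) of every tested gene of the set and of 6 further lists, 1 row per list, with called genes in colour, a black bar at each list's median and a dashed line at the median of all tested genes (-0.15). The medians of the set (-0.58) and of further targets (-0.45) lie left of the dashed line, and those of the paralogs (-0.03) and other bZIP factors (-0.04) lie right of it.

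Over the 6 libraries, the 5 protein-coding genes most like ATF4 by Pearson correlation of log2 values were COP1, C11orf58, GPAT3, GPR39 and HNRNPH2, with r of 0.999 to 0.996 among 7349 genes compared. COP1 had 1.95, 2.596 and 3.50 FPKM in sh-CFB, against 3.98, 3.39 and 2.73 FPKM in sh-NC, in the same order of libraries as ATF4. Of the set, DDIT3 (r = 0.85) ranked 1962nd, SESN2 (r = 0.80) 2519th, TRIB3 (r = 0.63) 3771st and PPP1R15A (r = 0.06) 5106th. The 5 genes above were picked as the highest of 7349, so lower values for genes named beforehand carry no meaning. The genes most like the mean of the other 8 tested genes were POMT2, GPATCH1, SLC27A4, WIPI1 and GARS1, with r of 0.996 to 0.983 among 7342. ATF4 itself (r = 0.77) ranked 1992nd there. GARS1, the glycyl-tRNA synthetase, had 2.53, 2.84 and 3.31 FPKM in sh-CFB, against 8.21, 6.61 and 4.74 FPKM in sh-NC. These correlations describe 6 libraries that share the GC axis and unequal depth, and carry no test.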

How the data were processed

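RNA was measured in 6 libraries of NCI-H1299 cells, 3 sh-CFB and 3 sh-NC, grouped by the sample labels; per the labels' protocols the kit selected poly(A) RNA and kept strand. The values are FPKM, computed and deposited by the authors as 1 table, with 1 column for each library, all used. The submitters' processing notes name GRCh38, STAR 2.7.3a, featureCounts 2.0.1, Trimmomatic 0.39 and FastQC 0.11.9, with no role or order. Not given in the sources used here are the strand setting, the annotation release, the handling of multiply mapped reads and how FPKM was computed, and a count table that the labels name was not analysed here.

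Whole reads were recovered from the steps of the FPKM values, which gave the depths and the reads quoted. For each gene a length was sought that made the reads of all libraries whole. That 100% of genes were whole within 0.02 follows from this search and is no check of it. Values were tested as log2(FPKM + 0.5) in 12466 genes with a mean of at least 0.5 FPKM by limma 3.58.1 (R 4.3.3) with an intensity trend, Benjamini-Hochberg adjusted over all of them at 0.05. This scale understates changes of low genes. The fit was tested on simulated data made from these means. The simulated noise was independent between genes and libraries and held no GC axis, so that test does not cover the axis. The GC correction fitted a spline of 5 degrees of freedom in GC and in length to each library. Coordinates, overlaps and leaders came from GENCODE 29, and promoters from RefSeq GRCh38.p14. Python 3.11.15, numpy 2.4.6, pandas 2.3.3 and matplotlib 3.10.9 did the rest.

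The members and all lists were chosen with earlier results of these data known. Named are the 10 members; in each other list up to 2 called genes per direction by size of change; and the 5 genes with a mean of at least 2 FPKM most correlated with ATF4 or with the mean of the other tested members. TXNIP, DDIT4L, BATF and MAF of the lists and CD3E, COL3A1 and LUM of the markers were not analysed here.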

Additional observations from a re-analysis of the deposited data

How the results depend on the processing

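Other pseudocounts (0.1 and 1), a filter of a mean of at least 1 FPKM, equal totals, the GC correction and voom on recovered reads left the number of genes of the set called lower within 1.5 times of 4. It was 2 with no filter (CHAC1 and CEBPB) and 1 with median-of-ratios factors, and ran from 0 to 5 with 1 library left out. The number called higher was 1 without both replicate 1 libraries (PPP1R15A) and otherwise 0. In the other lists, called genes numbered 3 lower and 2 higher with no filter, 1 lower with median-of-ratios factors, and 0 to 10 lower and 0 to 4 higher with 1 library left out. The median log2 change of the set was -0.38 when scaled by median-of-ratios factors. The GC correction put it at -0.72, with or without the block. ATF4 turned to 0.042 with median-of-ratios factors. The motif count was 1 with the letters TGATGCAA. Libraries with the same replicate number did not deviate alike from their group means, with correlations of -0.54, 0.07 and -0.45. Libraries also differ along the GC axis, so these values cannot show whether the numbers mark shared cultures or preparations. No label states it. With a replicate block, 0 genes of the set and 0 of the other lists were called in either direction, with and without the GC correction, as were 0 of all genes in limma, where 1770 (2466 with the GC correction) had an unadjusted p under 0.05. Over all genes, calls ran from 14 to 414 lower and from 6 to 130 higher with 1 library left out, fewest without sh-NC replicate 2. ASNS was limited by its 19 to 132 reads per library. The causes of these changes were not tested.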

Other observations

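Several other genes of the same pathway did not pass the test on the deposited scale or after the GC correction, and were chosen after their values were seen (means ± SD, n = 3 each). GDF15, a secreted stress cytokine, averaged 7.16 ± 1.16 FPKM in sh-CFB and 17.6 ± 8.11 FPKM in sh-NC (log2 change -1.13, limma adjusted p = 0.0902; -1.27 after the GC correction). STC2, a secreted glycoprotein induced by ATF4, averaged 10.7 ± 2.01 FPKM in sh-CFB and 22.0 ± 10.6 FPKM in sh-NC (-0.91, limma adjusted p = 0.148; -0.68 after the GC correction). CEBPG, a dimer partner of ATF4, averaged 8.64 ± 2.40 FPKM in sh-CFB and 16.1 ± 6.46 FPKM in sh-NC (-0.82, limma adjusted p = 0.149; -0.55 after the GC correction). ATF3, a bZIP factor of the same branch, averaged 3.78 ± 0.736 FPKM in sh-CFB and 5.31 ± 2.08 FPKM in sh-NC (-0.39, limma adjusted p = 0.422; -0.082 after the GC correction). SQSTM1, an autophagy receptor, averaged 209 ± 16.5 FPKM in sh-CFB and 197 ± 42.7 FPKM in sh-NC (0.10, limma adjusted p = 0.744; 0.13 after the GC correction). PPP1R15B, the constitutive counterpart of PPP1R15A, averaged 3.74 ± 0.878 FPKM in sh-CFB and 3.93 ± 0.628 FPKM in sh-NC (-0.08, limma adjusted p = 0.846; 0.19 after the GC correction).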
